A study of Mus musculus with 2 samples.

Results

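Mir302b, Mir302c, Mir302a, Mir302d and Mir367 are microRNA genes that lie side by side on mouse chromosome 3 and are known from pluripotent cells. The 5 genes were chosen by name: each is a counted gene whose Ensembl identifier carries one of these symbols in the GENCODE mouse annotation, and they are 5 of the 1973 microRNA genes counted. Their levels were measured by microRNA sequencing of RNA under 30 nucleotides from whole livers of B6NCrl mouse embryos of both sexes at embryonic day 11.5. The only group comprised 2 libraries, each from pooled embryos (109 for biological replicate 1, a number not stated for biological replicate 2), described as healthy and with no treatment or altered allele named. No second tissue, stage or genotype is analysed here, so counts could be compared between genes and between the pools, but not between conditions. How far the counts of different genes follow their numbers of molecules was not tested, so ratios between genes are ratios of counts.

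In mammals these microRNAs are cut from 1 shared primary transcript, which is switched on by the pluripotency factors Oct4 and Sox2 in embryonic stem cells and epiblast and fades as cells differentiate. The miR-302 products repress inhibitors of the cell cycle such as Cdkn1a and the Nodal antagonists Lefty1 and Lefty2, and the whole cluster can help to reprogram differentiated cells. A microRNA finds its targets mainly through its seed, bases 2 to 8 from the 5′ end. The miR-302 seed is close to that of the Mir290 to Mir295 cluster, which acts earlier in the embryo, and to that of miR-17, while miR-367 carries the seed of miR-92 and miR-25.

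The 3p products, miR-302a-3p, miR-302b-3p, miR-302c-3p, miR-302d-3p and miR-367-3p, are the ones by which the family is known. The 4 sequences that follow are those on which the seed relations below rest. Sequences are from RefSeq, build GRCm38.p6, plus strand, written 5′ to 3′ with the seed in capitals.
miR-302b-3p: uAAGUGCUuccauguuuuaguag
miR-302c-3p: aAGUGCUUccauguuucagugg
miR-302d-3p: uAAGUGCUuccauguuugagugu
miR-367-3p: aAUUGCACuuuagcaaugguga
miR-302b-3p and miR-302d-3p had the same seed, AAGUGCU. The RefSeq entry of miR-302c-3p starts without the leading u, so that its seed read AGUGCUU although the bases that follow are the same. Each pair of these 3 miR-302 products was 87.0% identical over the aligned length, and the runs they shared were 16 to 17 bases long.

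The opposite arms varied more, and are shown because they differ more between the 4 Mir302 genes.
miR-302a-5p: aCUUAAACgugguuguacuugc
miR-302b-5p: aCUUUAACaugggaaugcuuucu
miR-302c-5p: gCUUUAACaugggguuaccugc
miR-302d-5p: aCUUUAACauggaggcacuugcu
miR-367-5p: aCUGUUGCuaacaugcaacuc
The 5p products of Mir302b, Mir302c and Mir302d shared the seed CUUUAAC, whereas miR-302a-5p had CUUAAAC. Among the miR-302 5p products, identity ran from 65.2% to 73.9%. The counts are per gene, so the 5p and 3p products of a gene could not be separated.

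The 5 genes spanned 580 bases, chr3:127545228-127545807 of mm10, on the plus strand. In this direction they ran Mir302b, Mir302c, Mir302a, Mir302d and Mir367, with gaps of 43 to 65 bases between neighbours. All 5 lay in 1 intron of Larp7, which encodes a protein that binds 7SK RNA and is transcribed from the opposite strand. The intron covers chr3:127544279-127545825 in GENCODE M21, is spanned by 2 of the 4 Larp7 transcripts, and has no Larp7 exon over any of the 5 genes. Mir367 ended 18 bases before the next Larp7 exon. Neither library had a read on the Larp7 strand at any of the 5 genes, where a count of 0 allows up to 3 reads in each library.

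The hairpins of the genes with the highest and the lowest mean show where the products lie, with both arms in capitals.
Mir302d: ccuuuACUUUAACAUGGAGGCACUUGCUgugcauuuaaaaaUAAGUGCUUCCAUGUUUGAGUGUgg
Mir367: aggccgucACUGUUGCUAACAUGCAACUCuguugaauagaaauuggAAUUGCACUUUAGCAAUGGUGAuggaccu
Mir302d lies at chr3:127545624-127545689 and Mir367 at chr3:127545733-127545807. The hairpins of Mir302d and Mir367 were 53.1% identical, against 66.7% to 76.5% between any pair of the 4 Mir302 hairpins.

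All 4 Mir302 genes were detected in liver at embryonic day 11.5, and Mir367 was at the limit of detection. Levels are counts on the strand of the gene per 1000000 counts assigned to microRNA genes (CPM). Replicate 1 held 3344673 assigned counts and replicate 2 held 1584499. Intervals are 95% exact Poisson intervals and cover counting error only, since the sources describe no molecular identifiers.

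Mir302d (ENSMUSG00000065447.1) had 5888 counts in replicate 1 and 2069 in replicate 2. That is 1760 CPM (1716 to 1806) in replicate 1 and 1306 CPM (1250.1 to 1363) in replicate 2, with a mean of 1533 ± 321 CPM (SD, n = 2). Mir302a (ENSMUSG00000065552.1) had 5156 and 2364 counts in replicates 1 and 2. Its level was 1542 CPM (1500 to 1584) in replicate 1 and 1492 CPM (1432 to 1553) in replicate 2, with a mean of 1517 ± 35.1 CPM (SD, n = 2). Mir302a thus lay between the values of Mir302d from both libraries.

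Mir302b (ENSMUSG00000076252.1), the first gene of the transcript, had 3091 and 1574 counts in replicates 1 and 2. Its level was 924 CPM (892 to 957) in replicate 1 and 993 CPM (945 to 1044) in replicate 2, with a mean of 959 ± 48.9 CPM (SD, n = 2). Mir302c (ENSMUSG00000065482.1) had 725 and 268 counts, which is 217 CPM (201 to 233) in replicate 1 and 169 CPM (149 to 191) in replicate 2. Its mean was 193 ± 33.7 CPM (SD, n = 2), the lowest of the Mir302 genes in both libraries. Mir302c lies between Mir302b and Mir302a, so the levels did not run steadily in one direction along the transcript.

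**Figure D1:**
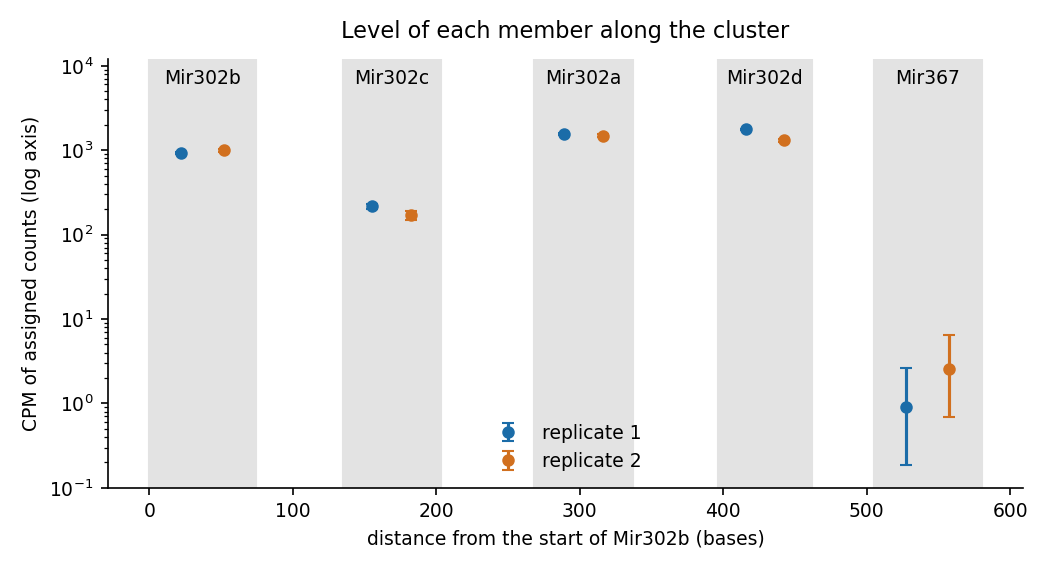
Level of each member along the cluster. The x axis is the distance in bases from the start of Mir302b, grey bands mark the hairpin genes, and the y axis is the level in CPM on a log scale; points are the 2 libraries and bars 95% exact Poisson intervals. Mir302b, Mir302a and Mir302d lie between 924 and 1760 CPM, Mir302c between 169 and 217 CPM, and Mir367 between 0.897 and 2.52 CPM.

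Mir367 (ENSMUSG00000065413.2), the last gene of the transcript, had 3 counts in replicate 1 and 4 in replicate 2. These are 0.897 CPM (0.185 to 2.62) in replicate 1 and 2.52 CPM (0.688 to 6.46) in replicate 2, with a mean of 1.71 ± 1.15 CPM (SD, n = 2). A count of 0 would itself allow levels up to 0.897 CPM in replicate 1 and up to 1.89 CPM in replicate 2. These limits set 3 reads as a one-sided 95% bound, unlike the two-sided intervals above. A gene was called detected at 10 or more counts in both libraries, and Mir367 fell short of that in each. Mir302d, its neighbour at a distance of 43 bases, had 1963 times the counts of Mir367 in replicate 1 (95% exact interval of the ratio 671 to 9520) and 517 times in replicate 2 (202 to 1900). The lowest Mir302 gene, Mir302c, had 242 times (82.4 to 1175) and 67.0 times (25.9 to 248) the counts of Mir367 in replicates 1 and 2.

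Reads that match several places were not assigned to any gene, so shared sequence bears on these counts. The hairpin of Mir367 shared at most 9 bases in a row with a Mir302 hairpin and at most 11 with any other counted gene that has a RefSeq hairpin. The hairpins of Mir302a and Mir302b shared a run of 20 bases, and the other Mir302 pairs shared runs of 16 to 17. Mir302a and Mir302b were thus 2 of the 104 counted genes, among 869 with a RefSeq hairpin, that shared 20 bases or more with another. None of the 9 mature sequences printed above had an exact copy in a transcript of another gene among 141767 GENCODE M21 transcripts. The genome itself was not searched, and how many reads of the cluster fell among those matching several places was not tested.

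Among the members, the order was resolved for all pairs but 1. The order of a pair was called resolved where it was the same in both libraries and the intervals of the genes overlapped in neither. Mir302d exceeded Mir302a by 1.14 times in replicate 1 (1.10 to 1.19), while in replicate 2 the ratio of Mir302d to Mir302a was 0.875 (0.825 to 0.929). Their order therefore turned between the pools. Mir302a had 1.67 times (1.60 to 1.74) the counts of Mir302b in replicate 1 and 1.50 times (1.41 to 1.60) in replicate 2. Mir302b had 4.26 times (3.93 to 4.63) the counts of Mir302c in replicate 1 and 5.87 times (5.16 to 6.71) in replicate 2.

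As shares of the 14863 cluster counts in replicate 1 and the 6279 in replicate 2, Mir302d and Mir302a made up most of the cluster. Mir302d took 39.6% (95% exact Clopper-Pearson interval 38.8 to 40.4) in replicate 1 and 33.0% (31.8 to 34.1) in replicate 2. Mir302a took 34.7% (33.9 to 35.5) in replicate 1 and 37.6% (36.4 to 38.9) in replicate 2. Mir302b followed with 20.8% (20.1 to 21.5) in replicate 1 and 25.1% (24.0 to 26.2) in replicate 2. Where Mir302d held a smaller share, in replicate 2, Mir302a and Mir302b held larger ones. Mir302c took 4.88% (4.54 to 5.24) in replicate 1 and 4.27% (3.78 to 4.80) in replicate 2, and these intervals overlapped. Mir367 took 0.0202% (0.00416 to 0.0590) in replicate 1 and 0.0637% (0.0174 to 0.163) in replicate 2.

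**Figure D2:**
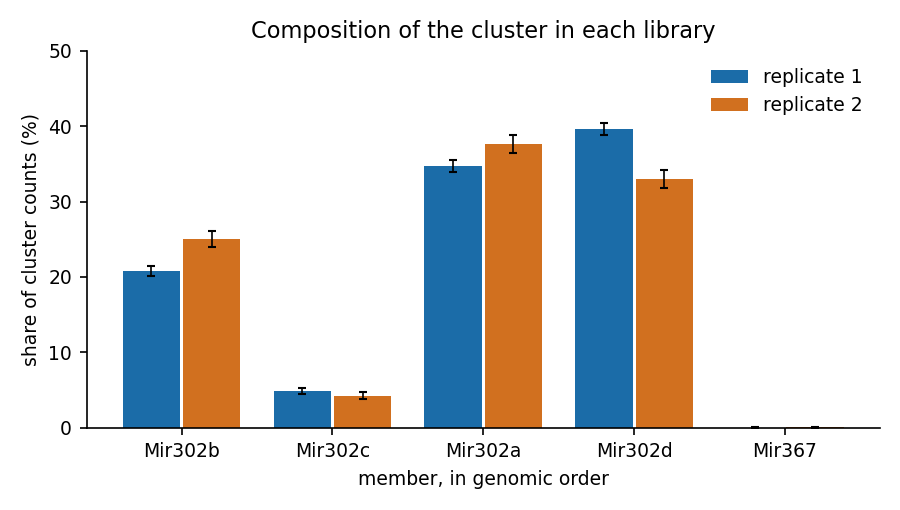
Composition of the cluster in each library. Bars give the share of cluster counts in percent for each member in genomic order, by replicate, with 95% exact Clopper-Pearson intervals; Mir302d leads in replicate 1 with 39.6% and Mir302a in replicate 2 with 37.6%, and Mir367 is too low to be seen.

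Within the whole profile the Mir302 genes were of middle to upper rank. Of 347 detected genes, 75.5% lay below Mir302d in replicate 1 and 71.8% in replicate 2. For Mir302a the shares were 72.6% and 72.9%, for Mir302b 65.7% and 68.0%, and for Mir302c 47.0% and 43.8%, in replicates 1 and 2. The median detected gene had a level of 272 CPM in replicate 1 and of 235 CPM in replicate 2, above Mir302c and below the other 3 Mir302 genes in both libraries. Among all 1973 genes, Mir302d ranked 85 and 98, Mir302a 95 and 94, Mir302b 119 and 111, Mir302c 184 and 194, and Mir367 528 and 400, in replicates 1 and 2.

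Counted as a single unit, the cluster held 0.444% of assigned counts in replicate 1 (95% exact Clopper-Pearson interval 0.437 to 0.452) and 0.396% in replicate 2 (0.387 to 0.406). The mean was 0.420 ± 0.0340% (SD, n = 2). With its 4444 CPM in replicate 1 and its 3963 CPM in replicate 2, such a unit would rank 56 and 53 among the counted genes.

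**Figure D3:**
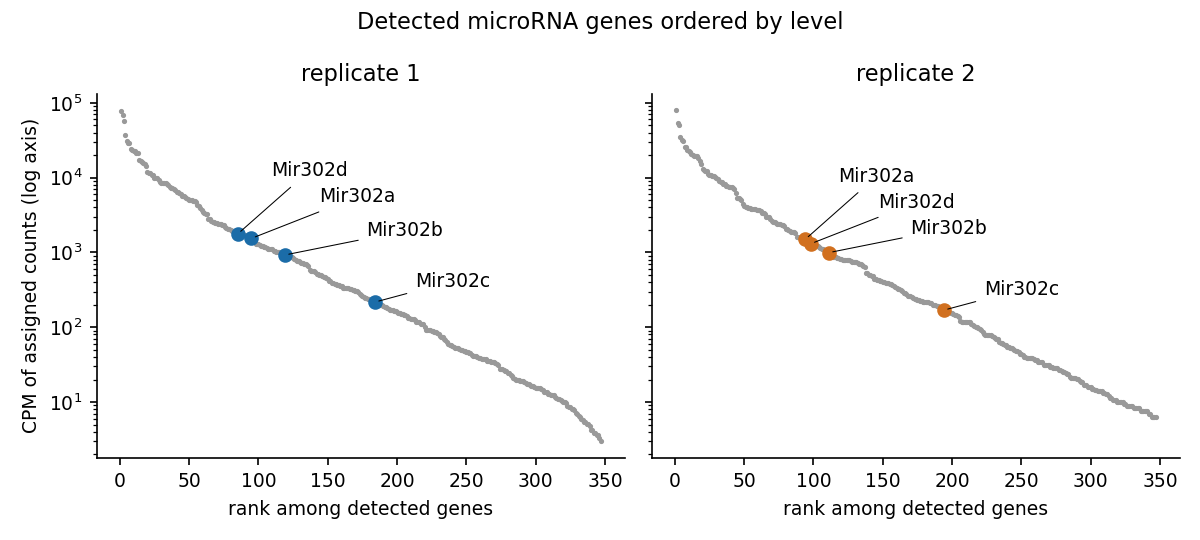
Detected microRNA genes ordered by level in each library. The x axis is the rank among the 347 detected genes, the y axis the level in CPM on a log scale, and grey points are genes; the coloured points are the 4 detected members, with Mir302d highest among them in replicate 1 and Mir302a in replicate 2.

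The genes whose levels were most like those of each member were found by Euclidean distance in log2(CPM + 1) over the 2 libraries, which compares levels and not a pattern over tissues. Nearest to Mir302d were Mir148a, with 1725 and 1226 CPM in replicates 1 and 2, and Mir200c, with 1644 and 1262 CPM. Nearest to Mir302a were Mir543, with 1625 and 1507 CPM, and Mir28a, with 1733 and 1614 CPM. Mir302b lay closest to Mir183, with 913 and 1044 CPM, and to Mir185, with 999 and 988 CPM. Mir302c lay closest to Mir505, with 221 and 171 CPM, and to Mir222, with 228 and 169 CPM. For Mir367 the nearest was Mir7017, with the same 3 and 4 counts. Mir6993, with 4 and 4 counts, came next and was tied with another gene not named here. The likeness of these genes to Mir367 rests on a handful of reads.

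Between the pools, the Mir302 genes differed by less than 2-fold. Each gene with at least 10 counts in the sum of both libraries was tested with a two-sided exact binomial test against the share given by edgeR's TMM effective library sizes, adjusted by Benjamini-Hochberg over the 454 genes tested. Calls required an adjusted p under 0.05 together with a difference of 2-fold or more. This test knows counting noise only and compares 2 libraries, not conditions. Of the 4 tested members 0 were called, against 36 of all genes tested (7.93%). At an unadjusted p under 0.05 stood 3 of the 4 members and 241 of the 454 genes. edgeR's exact test, with the biological coefficient of variation set to 0.2, called 0 of the 4 members and 1 gene in all. Mir367, with 7 counts in all, was below the minimum.

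Mir302d differed most among the tested members, with a log2 ratio of replicate 1 over replicate 2 of 0.44 and an adjusted p of 6.74e-34 by the exact binomial test. Mir302c had a log2 ratio of 0.37 with an adjusted p of 0.000731 by the exact binomial test. Mir302a, with a ratio of 0.06, and Mir302b, with -0.09, had adjusted p-values of 0.168 and 0.0769 by the same exact test, which does not show that they were equal. The median size of the log2 ratio, without its sign, was 0.23 over the 4 members and 0.44 over all 454 genes. These medians are not matched for level: each of the 4 members had 268 or more counts in each library. Of the 454 genes, 285 had at least 100 counts in the sum of both libraries. An adjusted p under 0.05, without regard to size, was reached by 2 of the 4 members and by 49.8% of all genes tested. Mir302b crossed that line in the exact binomial test under other scalings, with an adjusted p of 0.0422 with total assigned counts and 0.0355 with DESeq2 size factors. With the coefficient of variation of 0.2 in edgeR's exact test, 0 of the 4 members reached it, and the adjusted p was 0.762 for Mir302d and 0.805 for Mir302c.

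**Figure D4:**
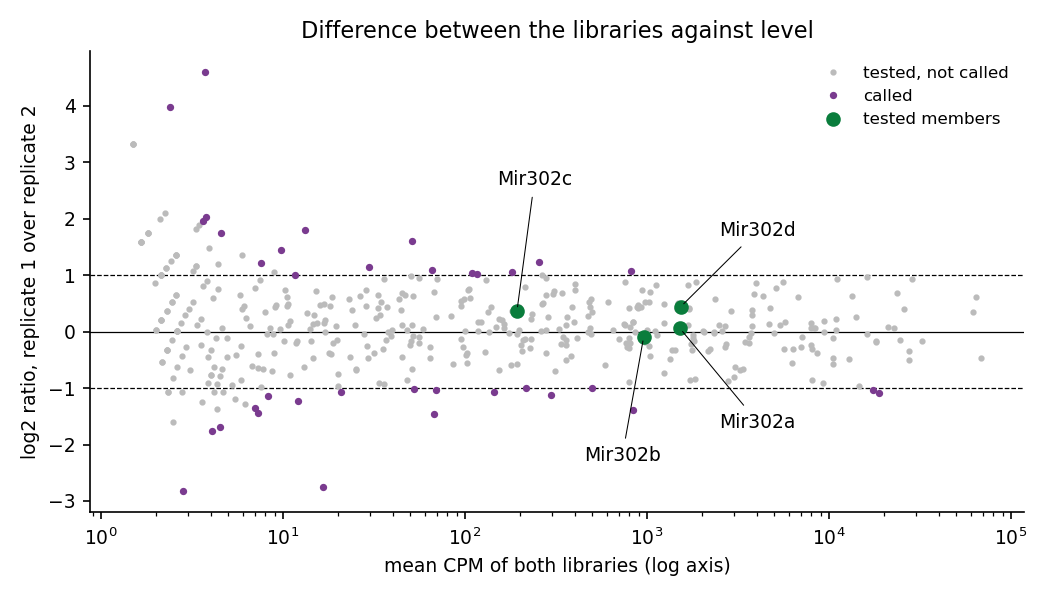
Difference between the libraries against level. The x axis is the mean CPM on a log scale and the y axis the log2 ratio of replicate 1 over replicate 2; purple points are the 36 called genes, green points the 4 tested members and dashed lines 2-fold. The members lie between -0.09 and 0.44, inside the dashed lines.

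The genes with related seeds were then set beside the cluster. No test between genes over the 2 libraries was run, and ratios are given for each library with 95% exact intervals for counting error.

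The cluster stood above the Mir290 to Mir295 cluster of chromosome 7, whose products promote the rapid cell cycle of mouse embryonic stem cells. The products of 3 of its genes had the same AAGUGCU seed as miR-302b-3p and miR-302d-3p.
miR-291a-3p: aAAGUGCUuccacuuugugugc
miR-294-3p: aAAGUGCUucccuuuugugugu
miR-295-3p: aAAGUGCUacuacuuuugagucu
The counts of the Mir302 and Mir367 cluster were 6.50 times those of the Mir290 to Mir295 cluster in replicate 1 (6.22 to 6.79) and 7.12 times in replicate 2 (6.63 to 7.65). Of 7 counted genes of the Mir290 to Mir295 cluster, 5 were detected. The products miR-291a-5p and miR-291b-5p differ only in their first and last bases. Reads matching several places were not assigned, so the counts of Mir291a and Mir291b may leave out reads that fit both.

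Mir302c, at 217 and 169 CPM in replicates 1 and 2, lay near the highest genes of that cluster, Mir294, at 256 and 208 CPM, and Mir293, at 197 and 219 CPM. The other 3 Mir302 genes lay above both in each library. Mir292 had 156 and 77.6 CPM, Mir291a 32.9 and 24.0 CPM, and Mir291b 15.5 and 20.2 CPM, in replicates 1 and 2. Mir295, with 69 and 9 counts, and Mir290a, with 20 and 3 counts, were not detected in both libraries. Of the 7 genes, 2 were called between the libraries, Mir292 and Mir295, both higher in replicate 1, against 7.93% of all genes tested.

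The miR-17 seed overlaps that of miR-302 but is shifted by 1 base, and its genes, which promote proliferation, together lay far above the cluster.
miR-17-5p: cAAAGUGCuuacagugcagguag
miR-20a-5p: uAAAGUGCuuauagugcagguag
The cluster held 0.444% and 0.396% of assigned counts in replicates 1 and 2, against 13.1% and 8.92% for the 6 genes of the miR-17 seed list, all 6 detected. The ratio of this list to the cluster was 29.5 in replicate 1 (29.0 to 30.0) and 22.5 in replicate 2 (22.0 to 23.1). Mir17, with 77281 and 51029 CPM, and Mir20a, with 29234 and 18331 CPM, led the list. Mir302d, Mir302a and Mir302b each exceeded Mir106a, with 561 and 393 CPM, and Mir20b, with 383 and 235 CPM, in both libraries.

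Mir367 shares its seed, AUUGCAC, with 6 other counted genes, and all 6 were detected.
miR-92a-3p: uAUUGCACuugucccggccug
miR-25-3p: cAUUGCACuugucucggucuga
miR-363-3p: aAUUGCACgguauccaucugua
Mir92-1 of the Mir17 cluster, a source of miR-92a-3p, had 8411 and 8141 CPM in replicates 1 and 2, and Mir25 had 829 and 793 CPM. The lowest of the 6 by mean was Mir92-2, at 179 and 230 CPM. Mir92-1 and Mir92-2 have the same miR-92a-3p, and reads matching several places were not assigned, so the levels of both leave out any read that fits both, and their place among the 6 is uncertain. Mir367 had 3 counts in replicate 1 and 4 in replicate 2, against 34094 and 16096 for the 6 genes together. In these libraries nearly all counts of genes with this seed came from outside the Mir302 and Mir367 cluster.

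**Figure D5:**
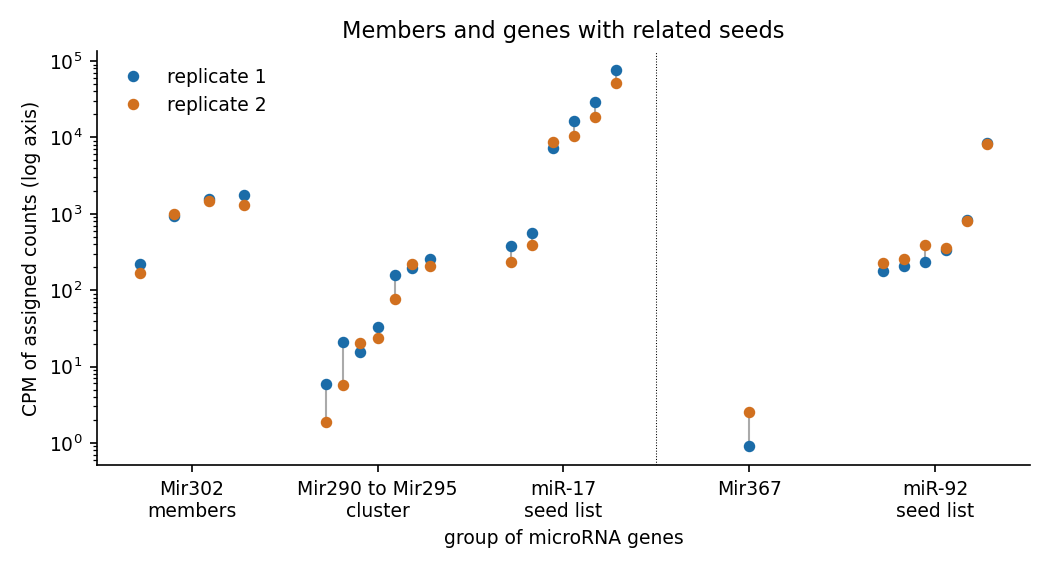
Members and genes with related seeds. The y axis is the level in CPM on a log scale, each grey line joins the 2 libraries of a gene, and colours mark the replicates; genes are sorted by mean within each group. The Mir302 members lie from 169 to 1760 CPM, the Mir290 to Mir295 genes from 1.89 to 256 CPM, and Mir367 lies at 0.897 and 2.52 CPM.

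The let-7 genes, which mark differentiating cells and oppose the pluripotent state, together exceeded the cluster in both pools. The cluster held 0.444% of assigned counts in replicate 1, against 3.57% for the let-7 list, a ratio of let-7 to cluster of 8.04 (7.91 to 8.18). In replicate 2 it held 0.396%, against 3.49% for let-7, a ratio of 8.81 (8.58 to 9.05). The let-7 list had 12 symbols, of which Mirlet7e and Mirlet7f-1 were not among the counted genes under these names, so the shares leave them out. Of 10 counted let-7 genes, 9 were detected, led by Mirlet7g at 21553 and 20568 CPM and Mirlet7i at 9357 and 9488 CPM in replicates 1 and 2. Of the 10, 6 lay below Mir302b in both libraries, from Mirlet7f-2, at 444 and 329 CPM, to Mirlet7c-2, at 6.88 and 5.68 CPM. Several let-7 genes, such as those of let-7a and let-7c, share a mature product, and their levels leave out reads that match several places.

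The libraries carried microRNAs known from cells of the labelled tissue, though not every gene of the marker lists. Mir122, known from hepatocytes, had 30679 and 34487 CPM, the erythroid Mir451a 7495 and 9793 CPM, and the endothelial Mir126a 57443 and 80051 CPM, in replicates 1 and 2. Of 6 counted hepatocyte genes, 4 were detected. Mir802, with 9 and 3 counts, and Mir194-1, with 48 and 8 counts, were not. Mir194-2, of the same family as Mir194-1, was detected at 1423 and 814 CPM in replicates 1 and 2. Reads matching several places were not assigned, so the low counts of Mir194-1 do not show that its product was scarce. All 3 counted erythroid genes were detected, among them Mir144, at 460 and 1214 CPM. Whole livers were used, so which cells held the RNA of the cluster was not tested, and fewer cells of a type and less RNA per cell cannot be told apart. The 2 libraries differed 2.11-fold in assigned counts, and reads matching several places made up 22.0% of replicate 1 and 22.6% of replicate 2.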

How the data were processed

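Small RNA from livers of embryos at embryonic day 11.5 was sequenced in 2 libraries, which formed 1 group. The deposited files hold raw read counts for each microRNA gene on either strand, on the strand of the gene and on the opposite strand. Reads were aligned to mm10 and counted on GENCODE annotation M4, per the file descriptions deposited by the authors; which aligner and counter were used is not given in the sources used here. The first 4 lines are classes of unassigned reads that name no gene and stayed out of library sizes. They held 73.8% of the 12750572 reads of replicate 1 and 71.0% of the 5471247 reads of replicate 2.

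CPM were computed here as a gene's same-strand count over all same-strand counts of the library. Symbols and coordinates came from GENCODE M21, on the same assembly, by Ensembl identifier without version. This named 1894 of 1973 genes, and the rest held 4 counts. Sequences came from RefSeq by symbol, and matched all 5 members.

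Genes with at least 10 summed counts were tested between the libraries with an exact binomial test and Benjamini-Hochberg adjustment, with TMM factors from edgeR 4.0.16 in R 4.3.3 and 0.5 added to each count for log2 ratios. DESeq2 1.42.0 gave alternative size factors. Folding used RNAfold 2.7.2, and other work Python 3.11.15, scipy 1.17.1 and Biopython 1.88. The members and the 11 lists of other microRNA genes, of which 4 are seed or family lists and 7 cell type markers, were chosen with earlier results of these data known. Named genes were the members, their 2 nearest genes in level, the 2 most abundant genes of each seed list, all of the Mir290 to Mir295 cluster, and Mir122, Mir451a and Mir126a. The other genes given with counts or levels were chosen after their values were seen. They are Mir92-2, Mir106a, Mir20b, Mirlet7f-2, Mirlet7c-2 and genes of the hepatocyte, erythroid, muscle and neural lists. With 2 libraries, SDs are imprecise.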

Additional observations from a re-analysis of the deposited data

How the results depend on the processing

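No paired analysis was possible because the libraries formed a single group. Scaling by TMM or DESeq2 size factors moved each member's mean by less than its SD. With all reads as the denominator the cluster share was 0.116%, and the means were 265 (Mir302b), 52.9 (Mir302c), 418 (Mir302a), 420.0 (Mir302d) and 0.483 (Mir367) per 1000000 reads, by construction. With reads on either strand, which adds counts of other genes to the total, the cluster share was 0.382%, Mir302b 870.2 CPM, Mir302a 1377 CPM, the miR-92 seed list 0.924% and let-7 3.21%. Without Mir126a in the denominator, Mir302b stood at 1030.1 CPM and Mir302a at 1629 CPM. With either replicate left out, the cluster share ran from 0.396% to 0.444%. The called genes numbered 18 from 100 summed counts and 1 by edgeR's exact test with an assumed coefficient of variation of 0.2; 0 members were called under any alternative run. Depth limits Mir367 most, whose 7 reads give intervals of over 9-fold.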

Other observations

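The hairpins of the cluster were poorer in G and C than most. Their GC content ran from 39.2% in Mir302b to 47.1% in Mir302c, against a median of 52.3% over the 869 counted genes with a RefSeq hairpin. Mir302b folded least stably per base among the 5, at -0.315 kcal/mol per base by RNAfold, with 88.6% of hairpins more stable. The others lay on the more stable side of the median of -0.413. They were Mir302a, at -0.459, Mir367, at -0.460, and, close to the median, Mir302c, at -0.421, and Mir302d, at -0.417. Whether folding bears on the level of a gene was not tested.

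Other marker lists give a scale for the cluster's 0.444% and 0.396% of assigned counts in replicates 1 and 2. The epithelial list held 5097 and 4999.7 CPM with 6 of 6 counted genes detected, the striated muscle list 0.0884% and 0.0797% with 5 of 8, and the neural list 0.0300% and 0.0294% with 5 of 10. Mir1a-1, Mir133a-1 and Mir133a-2 of muscle and Mir9-2, Mir124a-1 and Mir124a-3 of the nervous system had 0 counts in both libraries. These belong to families with several gene copies, and reads matching several places were not assigned, so a count of 0 does not show that the microRNA was absent. Other muscle genes were detected, led by Mir208b, at 331 and 324 CPM, Mir208a, at 272 and 157 CPM, Mir499, at 166 and 160.3 CPM, and Mir206, at 112 and 145 CPM, in replicates 1 and 2. The detected neural genes were led by Mir128-1, at 130 and 116 CPM, and Mir219a-1, at 58.0 and 70.7 CPM. Mir219a-2, Mir137 and Mir128-2 were detected at lower levels. The hepatocyte list held 3.48% and 3.81% with 4 of 6 counted genes detected, and the erythroid list 0.833% and 1.13% with 3 of 3. The leukocyte list held 1.04% and 0.812% with 4 of 4, and the endothelial gene Mir126a 5.74% and 8.01%. Whether carry-over of other embryonic tissue contributed to the reads of the cluster was not tested.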
